A study of Mus musculus with 27 samples.

Results

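The 36 genes described here encode aminoacyl-tRNA synthetases, taken by symbol from 24000 gene rows counted in each of 27 RNA-seq libraries of Ba/F3 cells. Of the 36, 20 encode subunits of the cytosolic enzymes and 16 encode the mitochondrial enzymes, and these sets were kept apart. All 36 passed the filter on low counts, as members of 12073 genes tested. Ba/F3 is an established mouse pro-B cell line that needs the cytokine IL3, and it was kept at 1 ng/mL IL3 in routine culture. Wild-type cells were either deprived of IL3 for 6 h (5 libraries, called deprived) or deprived for 6 h and then given 10 ng/mL IL3 for 30 min (5 libraries, called stimulated). The hairpin groups were all deprived and stimulated by the same schedule, after lentiviral transduction and at least 1 week of puromycin selection. Their short hairpins targeted nothing (no-target, 5 libraries), Stat5a, Stat5b, Kdm1a (which encodes the histone demethylase LSD1) or Hdac3 (a histone deacetylase), with 3 libraries each. Stat5a and Stat5b encode transcription factors switched on by the IL3 receptor. Libraries of a group are labelled biological replicates, and p-values measure the spread between them. The number of hairpins or clones per target was not given in the sources used here.

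Aminoacyl-tRNA synthetases join each amino acid to its tRNA and so supply the ribosome with charged tRNA. The cytosol and the mitochondria carry separate sets, nearly all encoded by different nuclear genes, while Gars and Kars encode both the cytosolic and the mitochondrial forms of their enzymes. Several cytosolic enzymes sit in a multi-tRNA synthetase complex held together by the scaffold proteins encoded by Aimp1, Aimp2 and Eef1e1. ATF4, the transcription factor of the integrated stress response, is known to activate many cytosolic synthetase genes through a short element (the C/EBP-ATF response element, CARE) when amino acids run short.

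Promoter sequences are shown because CARE is the element of ATF4, and Atf4 mRNA rose with IL3 in these libraries. RefSeq promoter windows (GRCm38.p6, 250 bases before to 50 bases after the gene's start) were matched for 27 of the 36 genes, all but Cars, Hars, Lars, Nars, Rars, Vars, Wars, Hars2 and Pars2. The CARE letters TGATGNAA, searched on both strands, were found in 5 of 13 cytosolic genes and 0 of 14 mitochondrial genes, against 4.51% of all 27025 genes with a window. All 5 were among the 12 cytosolic genes listed as known ATF4 targets, of which 8 had a window. For each of the 5 genes, 1 match is shown in capitals with 10 bases on each side, 5′ to 3′ on the gene's own strand. The matches shown for Aars, Iars and Yars begin after the gene's start, at base 9, 7 and 3. Those of Gars and Tars begin 30 and 15 bases before it. Aars held another match that begins 112 bases before the start and is not shown. On that strand the element of Yars reads forward and the others read as its reverse complement.
Aars (chr8:111033841-111033868, plus strand, match from base 9 after the start): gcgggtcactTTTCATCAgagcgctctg
Gars (chr6:55037961-55037988, plus strand): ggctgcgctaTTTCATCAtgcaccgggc
Iars (chr13:49682127-49682154, plus strand): actgtcagtaTTGCATCAcctccagacg
Tars (chr15:11399656-11399683, minus strand): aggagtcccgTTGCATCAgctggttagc
Yars (chr4:129189896-129189923, plus strand): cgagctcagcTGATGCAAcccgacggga

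The E-box CACGTG, the site of MYC and related factors, was found in 4 of 13 cytosolic windows (Aars, Farsb, Iars and Tars) and in 1 of 14 mitochondrial ones (Ears2), against 8.09% of all genes. The STAT letters TTCNNNGAA were found in Aars, Kars and Nars2, against 9.55% of all genes. Both were searched on both strands. The window of Mars2, the gene whose mRNA rose with IL3, held none of the 3 motifs, and its 250 bases before the start (chr1:55236927-55237176, plus strand) are shown for that reason. A match or its absence describes these letters in this window and no more.
Mars2: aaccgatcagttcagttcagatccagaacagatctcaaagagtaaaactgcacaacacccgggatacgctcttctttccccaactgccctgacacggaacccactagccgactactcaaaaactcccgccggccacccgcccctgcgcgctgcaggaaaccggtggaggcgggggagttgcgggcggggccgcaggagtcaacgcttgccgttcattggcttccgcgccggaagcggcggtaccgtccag

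Library depth, as reads assigned to genes, was 5.48 to 33.8 M. A set of 5 libraries (replicates 1 and 3 of the no-target hairpin, 1 of LSD1, and 1 and 2 of HDAC3) had 14.03 to 24.9% of reads outside genes and 5.48 to 7.53 M reads. The remaining 22 had 8.70 to 11.99% outside genes and 8.47 to 33.8 M reads. In each knockdown the libraries lay below every no-target library for the hairpin's own target: Stat5a at 25.95 ± 2.03 against 72.3 ± 14.8 CPM (reads of a gene per 1 M reads, after library scaling; mean ± SD), Stat5b at 33.02 ± 3.39 against 116 ± 16.2, Kdm1a at 76.9 ± 23.9 against 145 ± 10.6 and Hdac3 at 58.2 ± 22.2 against 131 ± 23.1. Of 5 markers of IL3-dependent progenitors, the IL3 receptor genes Il3ra, Csf2rb and Csf2rb2 and also Ptprc were present in every library. Kit, the remaining marker, did not exceed 0.651 CPM in any library. Of 13 B-lineage markers, only Cd79a and Cd79b had a mean over 1 CPM, while Pax5 and Ebf1 did not exceed 0.704 CPM in any library. The summed level of 5 fibroblast markers was at most 3.58 CPM and that of 5 T cell markers at most 8.61 CPM. The summed level of 5 erythroid markers was 169 to 318 CPM in deprived and 95.5 to 200.2 in stimulated wild type, and 38.9 to 146 with a hairpin, with Klf1 and Epor alone over a mean of 1 CPM and Hba-a1 at 0 throughout. The summed level of 8 myeloid markers was 6.39 to 63.1 CPM with the no-target, 30.7 to 222 with the STAT5A, 48.96 to 387 with the STAT5B, 113 to 287 with the LSD1 and 5.80 to 24.9 with the HDAC3 hairpin. Mpo made up most of the highest sums, and Csf1r and Itgam stayed under 1 CPM. The part of these genes in the synthetase values was not tested.

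The cytosolic genes had the higher levels per length of annotated exon. In deprived wild type, their median was 28.3 CPM per kb (range 8.93 to 95.2 over 20 genes), against 8.48 (0.751 to 50.3) for the 16 mitochondrial genes. Gars, for glycine, stood first at 95.2 ± 11.3 CPM per kb (SD, n = 5), ahead of Vars, for valine, at 78.1 ± 14.7, Kars, for lysine, at 71.8 ± 4.02, and Farsa, a subunit of the phenylalanine enzyme, at 63.1 ± 7.37. Each of these 4 overlapped the next in its library values, so neighbours in this order did not differ beyond their spread. The highest mitochondrial gene was Lars2, for leucine, at 50.3 ± 46.5, and it also had the widest spread. The lowest were Wars2, for tryptophan, at 4.21 ± 0.298, Nars2, for asparagine, at 1.59 ± 0.175, Ears2, for glutamate, at 1.56 ± 0.494, and Mars2, for methionine, at 0.751 ± 0.120. Nars2 and Ears2 overlapped, while Mars2 lay below both in every library. These values divide by all annotated exon bases of a gene, which for Mars2 are a single exon of 11.3 kb. For Gars, Vars, Kars and Farsa they are 3119, 5608, 4464 and 4538 bases. Their principal transcripts have 2380, 4137, 2008 and 1826 bases, so the order of these genes depends on the length used.

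**Figure D1:**
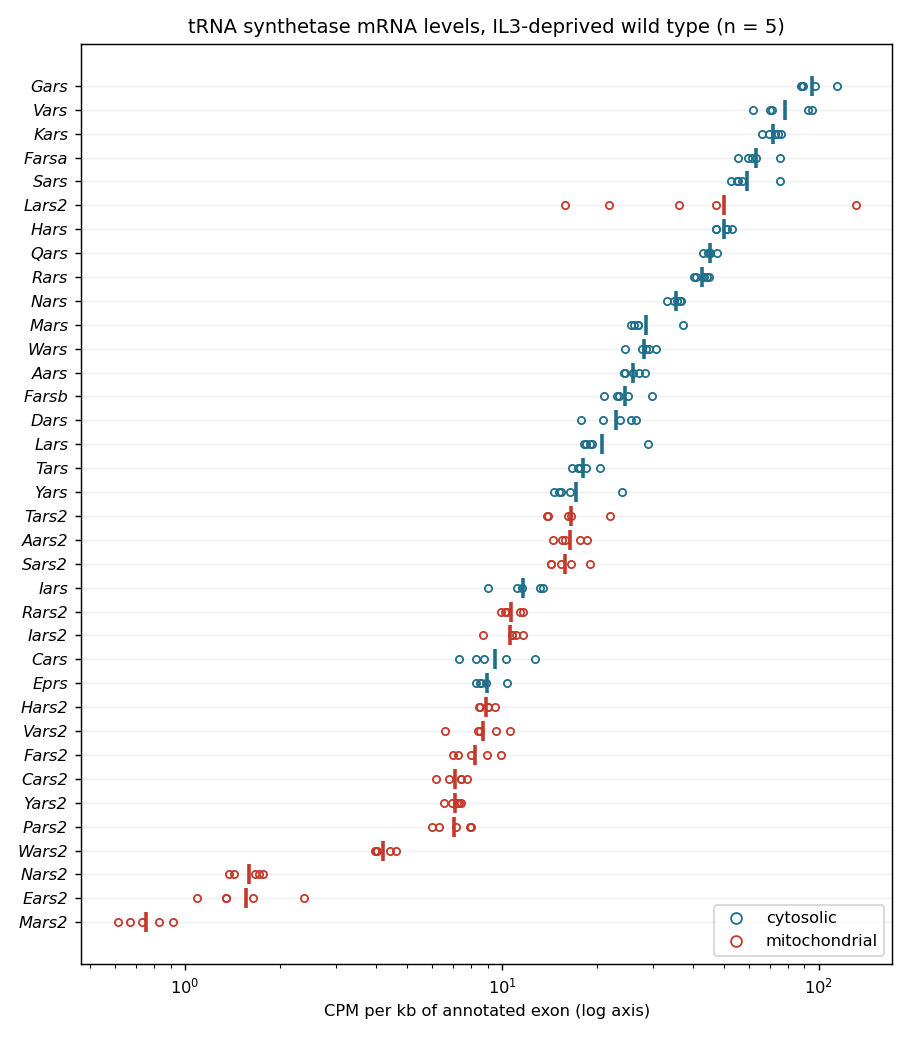
Level of each of the 36 synthetase mRNAs in IL3-deprived wild-type cells, in CPM per kb of annotated exon on a log axis. Open circles are the 5 libraries, vertical ticks the means, and colours the cytosolic (median 28.3) and mitochondrial (median 8.48) genes; the wide row is Lars2.

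Across the 7 groups, the highest group mean was 1.17 to 1.93 times the lowest for the 20 cytosolic genes (median 1.48), and under 2 for every one of them. For the 16 mitochondrial genes the ratio ran from 1.19 to 3.42 (median 1.68), and 4 genes reached 2 or more, namely Fars2, Lars2, Mars2 and Pars2. The highest mean of 22 genes lay in deprived wild type, and the lowest mean of 13 in the STAT5A knockdown. These counts were not made over all genes tested, so whether they are unusual cannot be said. No synthetase gene was called between the STAT5A and no-target hairpins. Summed over the 20 cytosolic genes, levels were 3560 ± 238 CPM in deprived and 3279 ± 127 in stimulated wild type (SD, n = 5 each), and 2983 ± 256 with the no-target hairpin (n = 5). The sums were 2829 ± 73.2 in the STAT5A, 2945 ± 303 in the STAT5B, 2875 ± 320 in the LSD1 and 3120 ± 310.0 in the HDAC3 knockdown (n = 3 each). The mitochondrial sum without Lars2 was 650 ± 47.5 CPM in deprived and 581 ± 9.22 in stimulated wild type, and its group means lay between 484 and 532 with a hairpin. In bulk samples, fewer cells with a transcript and less of it per cell cannot be told apart.

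**Figure D2:**
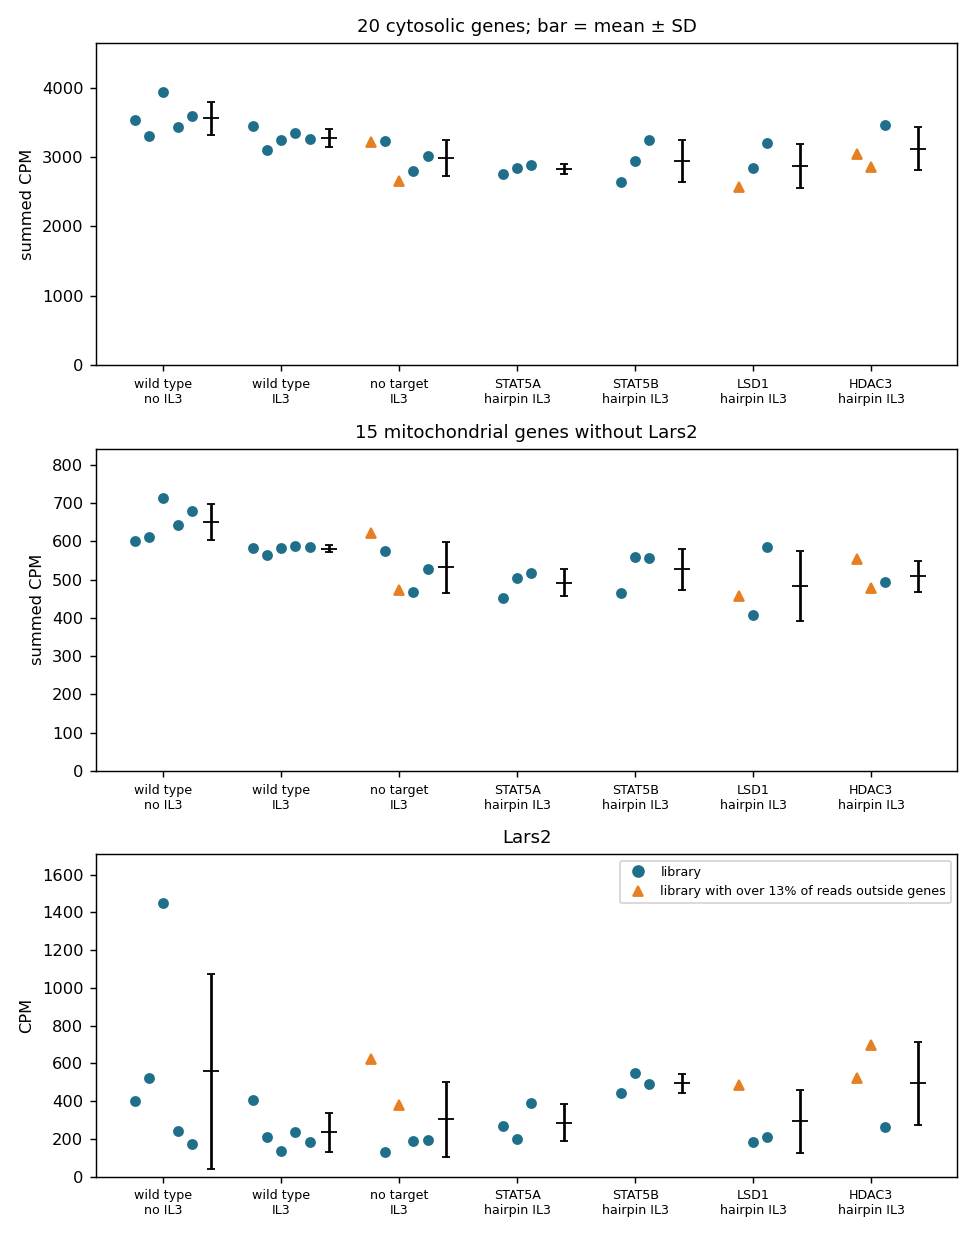
Summed CPM by library over the 20 cytosolic genes (top) and the 15 mitochondrial genes other than Lars2 (middle), and CPM of Lars2 (bottom), in the 7 groups. Points are libraries (orange triangles, the 5 with over 13% of reads outside genes), and black bars are the mean ± SD; Lars2 reaches 1447 CPM in deprived wild-type replicate 3.

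Comparing stimulated with deprived wild type asked which of these mRNAs respond within 30 min of IL3. Mars2 rose and Pars2 fell, while none of the 20 cytosolic genes was called by edgeR (adjusted p under 0.05 over all genes tested). Across all genes tested, 3.82% were called, 3% higher and 0.82% lower. Before adjustment, 7 of the 36 had a p under 0.05, of which 6 were mitochondrial and 1 was higher, against 1045 higher and 645 lower of all 12073 genes. The median log2 fold change was -0.12 over the cytosolic and -0.23 over the mitochondrial genes, against -0.02 over all genes tested. Without deprived replicate 3 these medians were -0.07 and -0.13, against -0.01 over all genes. Negative values were found for 14 of 20 cytosolic and 12 of 16 mitochondrial genes, against 6401 of all 12073.

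Mars2 encodes the mitochondrial methionine enzyme, whose product is formylated to start mitochondrial proteins. It lies at chromosome 1, 55237177 to 55248470, plus strand (GRCm38/mm10, GENCODE vM21) as a single exon. Its level was 7.58, 10.3, 6.93, 8.25 and 9.32 CPM in deprived replicates 1 to 5 and 12.9, 20.8, 19.6, 25.7 and 22.7 in stimulated replicates 1 to 5. The groups did not overlap, and stimulated replicate 1 was the nearest to the deprived libraries. The means were 8.48 ± 1.35 and 20.3 ± 4.76 CPM (SD, n = 5 each; log2 fold change 1.26, SE 0.23, adjusted p = 0.00106 by edgeR), and the level was higher in 5 of 5 pairs of equal replicate number. The 17 hairpin libraries, all stimulated, held 11.6 to 37.0 CPM of Mars2, each above the highest deprived library at 10.3. Of all genes tested, 3.26% had all 17 hairpin libraries above all 5 deprived ones, and Mars2 was the only synthetase gene among them. Transduction, puromycin selection and IL3 cannot be told apart in that comparison.

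Pars2 encodes the mitochondrial proline enzyme and lies at chromosome 4, 106651069 to 106655282, plus strand, with 2 exons in its principal transcript. Its level was 18.6, 19.5, 24.6, 22.1 and 24.5 CPM in the deprived and 13.3, 11.5, 12.3, 13.1 and 10.98 CPM in the stimulated libraries. Every stimulated library lay below every deprived one, and the spread was smaller after IL3. The means were 21.9 ± 2.77 and 12.3 ± 1.00 CPM (SD, n = 5 each; log2 fold change -0.83, SE 0.16, adjusted p = 0.00231 by edgeR), lower in 5 of 5 pairs. In the hairpin groups, which were stimulated too, group means were 10.1 to 10.7 CPM, and all 17 libraries lay below the lowest deprived library. The same held for Kars, Cars2, Fars2 and Tars2, so 5 of 36 genes lay below, against 2.09% of all genes tested.

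**Figure D3:**
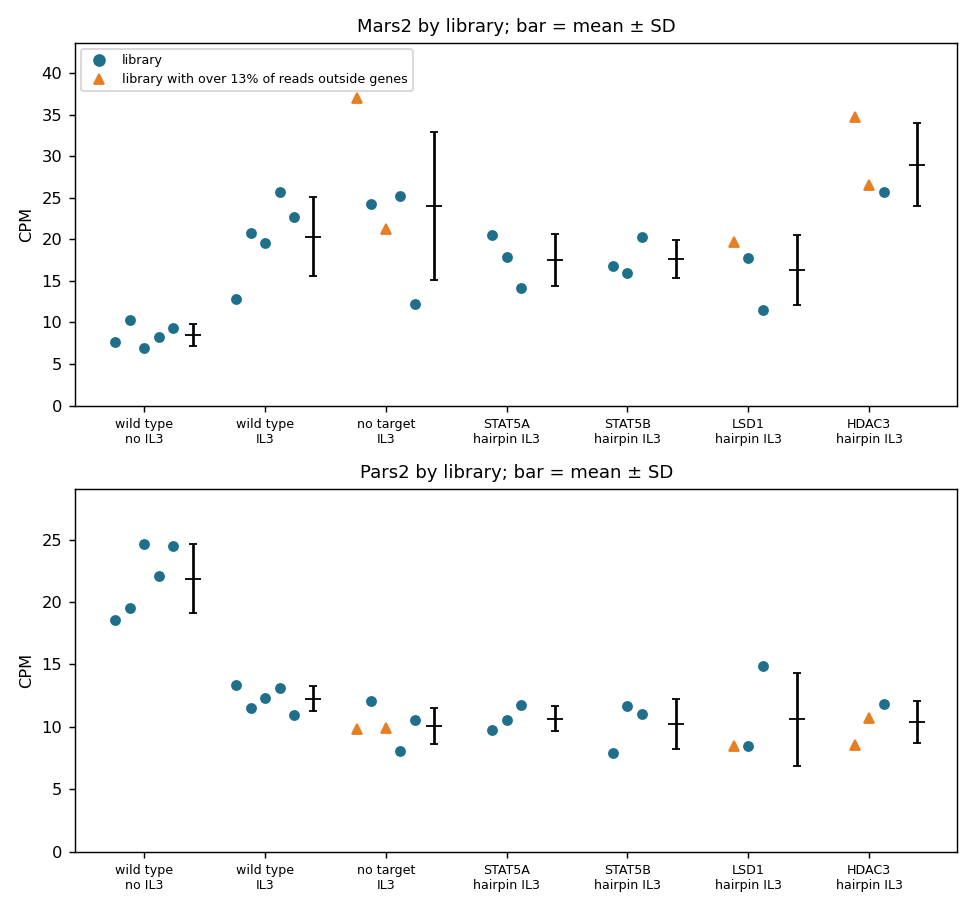
CPM of Mars2 (top) and Pars2 (bottom) in each of 27 libraries by group. Points are libraries (orange triangles, the 5 with over 13% of reads outside genes), black bars the mean ± SD; deprived wild type is lowest for Mars2 (8.48 ± 1.35) and highest for Pars2 (21.9 ± 2.77).

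Other genes separated the wild-type groups without being called in the fit of all libraries. Cars2, Hars2, Sars2 and Sars had all 5 stimulated libraries below all 5 deprived ones, which with Mars2 and Pars2 makes 6 of 36 genes without overlap, against 11.2% of all genes tested. Hars2, for histidine in mitochondria, held 40.6, 38.6, 36.5, 36.2 and 38.7 CPM in deprived and 32.6, 32.01, 30.7, 29.6 and 33.8 in stimulated libraries (log2 fold change -0.26, SE 0.09, adjusted p = 0.109 by edgeR). Cars2, for cysteine, held 44.9, 49.2, 53.9, 53.9 and 55.98 and 42.4, 39.5, 35.9, 40.8 and 43.4 CPM (log2 fold change -0.35, SE 0.15, adjusted p = 0.267 by edgeR). Neither passed. Hars2 shares 195 exonic bases with Hars on the opposite strand and Cars2 shares 422 with Naxd, and with a kit that does not keep the strand, reads in such stretches cannot be assigned.

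A positive value was found for 4 of 16 mitochondrial genes, Mars2, Yars2, Nars2 and Rars2, of which Mars2 alone was called. Yars2, for tyrosine, held 21.95, 23.4, 20.6, 23.03 and 22.6 CPM in deprived and 22.2, 27.1, 28.2, 31.2 and 26.1 in stimulated libraries (log2 fold change 0.27, SE 0.16, adjusted p = 0.497 by edgeR). Nars2 held 11.6, 12.2, 9.58, 9.92 and 11.9 and 13.6, 13.3, 12.6, 11.6 and 13.9 CPM (log2 fold change 0.23, SE 0.13, adjusted p = 0.426 by edgeR). Both overlapped between the groups, and Rars2, for arginine, did so at 27.4 to 32.2 and 28.9 to 36.2 CPM (log2 fold change 0.13, SE 0.11, adjusted p = 0.653 by edgeR). The 20 cytosolic values ran from -0.31 (Mars) to 0.16 (Tars). Iars2, for isoleucine, was at 94.1 ± 9.81 and 93.4 ± 2.38 CPM (log2 fold change -0.01, SE 0.18, adjusted p = 0.988 by edgeR), and 22.9% of its exonic bases lie opposite Rab3gap2.

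The replicate numbers paired the wild-type libraries: deviations from the group means correlated in 5 of 5 pairs (r from 0.375 to 0.716). With the number as a block, edgeR called 8 of the 36 genes, where it called 22.4% of all genes tested in that fit (13.3% higher, 9.09% lower). Mars2 rose (log2 fold change 1.23), and the other 7 fell: Pars2 (-0.82), Cars2 (-0.34), Sars2 for serine (-0.32), Tars2 for threonine (-0.31), Hars2 (-0.26), and the cytosolic Mars for methionine (-0.30) and Vars (-0.29). The adjusted p of the 8 ran from 0.00155 to 0.0476. Of the 16 mitochondrial genes, 6 were called, and of the 20 cytosolic genes 2. Leaving out pair 1 or 3 gave 10 or 12 calls among the 36, where 27.4% or 31% of all genes were called. Leaving out pair 2, 4 or 5 gave Mars2 and Pars2 alone, where 6.91%, 5.85% or 4.21% of all genes were called, so the members' count moved with that of all genes. These fits were added after seeing the data. Of all 36 genes, 17 were lower in stimulated libraries of 5 of 5 pairs and 3 were higher, against 23.3% and 19.9% of all genes tested.

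**Figure D4:**
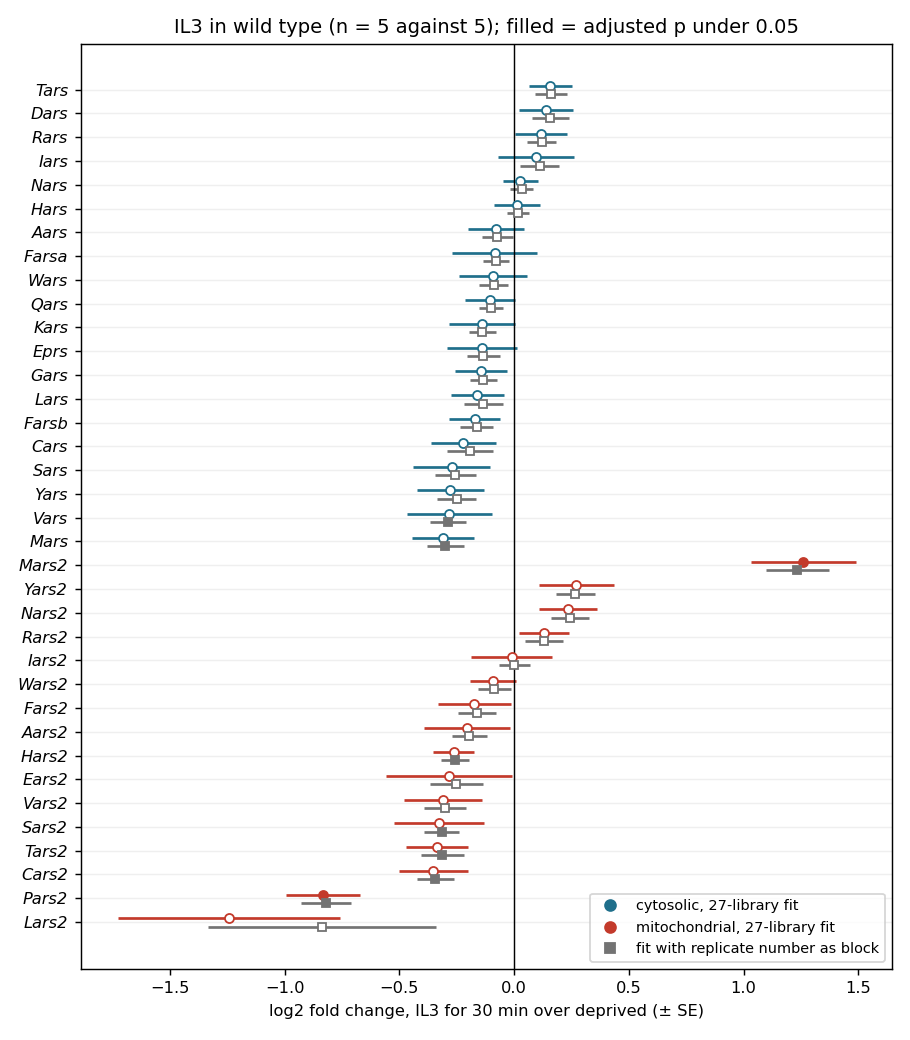
Log2 fold change ± SE of stimulated over deprived wild-type cells for the 36 genes, from the fit of all 27 libraries (circles, coloured by compartment) and from the fit of the wild-type libraries with replicate number as a block (grey squares). Filled symbols had an adjusted p under 0.05: Mars2 and Pars2 in both fits, and 6 further genes in the blocked fit.

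Pair 1 changed least among those 8 genes, with the smallest change in 7 of them. Mars held 91.7, 89.03, 128, 87.3 and 91.9 CPM in the deprived and 92.8, 68.1, 88.6, 69.5 and 74.3 in the stimulated libraries. Vars held 517, 348, 533, 392 and 399 and 508, 292, 381, 317 and 303 CPM. In pair 1 the 2 libraries were nearly equal for both genes, and in pairs 2 to 5 the stimulated library was lower. Mars shares 68 exonic bases with Ddit3, a stress-response gene on the opposite strand, which was also highest in deprived replicate 3 and stimulated replicate 1 (24.3, 24.1, 38.4, 26.3 and 30.3 CPM deprived, 28.9, 14.7, 15.2, 15.1 and 14.6 CPM stimulated).

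Deprived replicate 3 stood apart in many synthetase genes on the scaled levels. It was the highest of the 5 deprived libraries for 13 of 20 cytosolic and 8 of 16 mitochondrial genes. That count was not made over all genes. Its library scaling factor was 0.852, which raises its CPM, against 0.956 to 1.02 in the other deprived libraries. As a share of counted reads, its cytosolic genes held 0.336%, against 0.316 to 0.355% in the others. Among other genes, Aimp1 was also highest there (212 CPM) and Stat5a lowest (85.6 CPM). Sars, for serine, held 283, 271, 387, 286 and 293 CPM in the deprived libraries, Lars, for leucine, 98.5, 97.3, 154, 103 and 102, and Yars, for tyrosine, 89.8, 86.4, 142, 91.5 and 97.03. In each of these genes replicate 3 was far above the remaining 4, which lay close together. It was the lowest deprived library for 7 genes, namely Dars, Farsa, Iars, Iars2, Mars2, Nars2 and Yars2. Without it the cytosolic sum of deprived cells was 3465 ± 124 CPM (n = 4), and without stimulated replicate 3 as well that of stimulated cells was 3288 ± 145 (n = 4). The Mars2 and Pars2 calls were kept in each fit that left out a wild-type library.

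Of the 36 genes, Lars2 varied most, from 133 to 1447 CPM over 27 libraries. Its deprived libraries held 401, 523, 1447, 240.4 and 175 CPM and its stimulated libraries 406, 213, 138, 238 and 182. Within deprived cells the highest library was over 8 times the lowest, and the groups overlapped. The means were 557 ± 515 and 235 ± 103 CPM (log2 fold change -1.24, SE 0.48, adjusted p = 0.197 by edgeR), and the log2 fold change ran from -1.52 to -0.29 over the alternatives. In the 5 libraries with many reads outside genes Lars2 lay at 378 to 697 CPM (median 524). The remaining 22 ran from 133 to 1447 CPM (median 239), and 8 of them were over 350 CPM. The part of that library property in the level of Lars2 was not tested.

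The cytosolic genes were also read by the groups they belong to. The 8 genes of the multi-tRNA synthetase complex had a median log2 fold change of -0.12 with IL3, the 10 class I genes -0.15 and the 10 class II genes -0.08, and none was called in the fit of all libraries. The 12 known ATF4 targets had a median of -0.14, with 0 called, 3 positive and 9 negative. Without deprived replicate 3 the medians were -0.04 for the complex, -0.08 for class I, -0.06 for class II and -0.06 for the ATF4 targets. With the replicate block, Mars, which is in the complex, class I and the ATF4 list, and Vars, in class I, were called lower. That fit called 9.09% of all genes tested lower. Of the 5 genes with a CARE match, Tars (0.16) and Iars (0.10) had positive values in the fit of all libraries. Aars (-0.08), Gars (-0.14) and Yars (-0.28) had negative ones. In the order named, none passed (adjusted p = 0.489, 0.857, 0.837, 0.619 and 0.411 by edgeR). Their 95% intervals were -0.04 to 0.35 for Tars, -0.25 to 0.44 for Iars, -0.33 to 0.17 for Aars, -0.38 to 0.09 for Gars and -0.58 to 0.02 for Yars. With the replicate block, none of these genes was called either. The blocked fit without pair 3 called Tars higher (0.20, adjusted p = 0.0421 by edgeR) and Yars lower (-0.15, adjusted p = 0.0418 by edgeR). In that fit 31% of all genes were called.

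Atf4 mRNA itself held 161, 142, 203, 148 and 151 CPM in deprived and 398, 351, 379, 418 and 404 CPM in stimulated libraries, without overlap (log2 fold change 1.28, SE 0.20, adjusted p = 0.000220 by edgeR). Of 18 measured genes of the ATF4 branch of the stress response, Atf4 was the only one called in the fit of all libraries (median log2 fold change -0.12). With the replicate block Ppp1r15a was also called higher, and Ddit3, Pck2 and Cebpb lower. That fit called 13.3% of all genes tested higher and 9.09% lower. Asns, the asparagine synthetase and a standard ATF4 target, held 83.7 to 114 CPM in deprived and 79.2 to 94.6 in stimulated libraries (log2 fold change -0.13, SE 0.13, adjusted p = 0.725 by edgeR). Transcript level does not report ATF4 protein, which was not measured here.

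Among partners of the enzymes, the scaffold gene Eef1e1 rose. It held 21.1, 22.4, 18.99, 20.1 and 18.8 CPM in deprived and 29.6, 45.9, 44.4, 49.5 and 46.3 CPM in stimulated libraries, with stimulated replicate 1 again the lowest of its group and no overlap (log2 fold change 1.09, SE 0.20, adjusted p = 0.00132 by edgeR). The 2 other scaffold genes were not called, Aimp1 at 163 ± 27.8 and 137 ± 2.11 CPM and Aimp2 at 50.5 ± 12.7 and 46.8 ± 4.74 (SD, n = 5 each). Among 12 genes of tRNA production, Polr3d, a subunit of the RNA polymerase that transcribes tRNA genes, was the only one called in the fit of all libraries, from 13.2 ± 2.40 to 40.1 ± 13.95 CPM (log2 fold change 1.60, SE 0.29, adjusted p = 0.000978 by edgeR). None of 5 cytosolic elongation factor genes (median -0.27), 10 mitochondrial translation factor genes (median -0.23), 4 eIF2alpha kinase genes or 10 amino acid transporter genes was called in that fit. With the replicate block, 13.3% of all genes tested were called higher and 9.09% lower. In that fit, 4 of the 10 mitochondrial translation factor genes were called lower (Gfm2, Mrrf, Mtif3 and Tufm). Of the transporters, 3 were then called higher (Slc7a1, Slc7a11 and Slc38a2) and 1 lower (Slc6a9), and of the tRNA production genes, 2 higher (Polr3d and Trnt1) and 1 lower (Maf1). Myc, a factor that binds the E-box, rose from 112 ± 39.98 to 1263 ± 151 CPM (log2 fold change 3.49, SE 0.25, adjusted p = 6.37e-10 by edgeR). The 5 synthetase genes with an E-box match in the window were not called in the fit of all libraries or with the replicate block. The blocked fit without pair 3 called Tars among them higher (log2 fold change 0.20, adjusted p = 0.0421 by edgeR), where 31% of all genes were called. The part of Myc in these genes was not tested.

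The no-target libraries were also set beside the stimulated wild-type ones. These groups differ in transduction and in puromycin selection. Of the 5 no-target libraries, 2 had over 13% of reads outside genes, against 0 of the 5 wild-type ones. The parts of these differences cannot be told apart here. No synthetase gene was called, and 0% of all genes tested were. Before adjustment, 1 of the 36 was higher and 6 lower at p under 0.05, against 1335 and 707 of all genes. Aars, for alanine, held 234, 233, 205, 234 and 234 CPM in stimulated wild type and 185, 160.5, 155, 154 and 159 in the no-target libraries, without overlap (log2 fold change -0.49, SE 0.12, adjusted p = 0.136 by edgeR). Kars held 306, 267, 255, 327 and 301 and 233, 232, 149, 205 and 207 CPM (log2 fold change -0.50, SE 0.14, adjusted p = 0.178 by edgeR), and Farsa 265, 261, 228, 293 and 302 and 173, 207, 145, 164 and 171 (log2 fold change -0.65, SE 0.19, adjusted p = 0.180 by edgeR). In all 3, each no-target library lay below each wild-type library. Dars, for aspartate, lay above in each, at 117 to 154 against 106 to 113 CPM (log2 fold change 0.30, SE 0.12, adjusted p = 0.240 by edgeR). These 4 of 36 genes without overlap compare with 5.34% of all genes tested. DESeq2 called Aars (log2 fold change -0.47, adjusted p = 0.0242), and 0.965% of all genes it tested. Aars shares 1326 exonic bases, 14.3% of its annotated exon, with Exosc6 on the same strand, and how the authors' counting divided them was not given in the sources used here.

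Against the no-target hairpin, no synthetase gene was called in any of the 4 knockdowns. All genes tested were called at 0.0663% for STAT5A, 0.34% for STAT5B, 0.166% for LSD1 and 0.0248% for HDAC3. The 4 comparisons share the same 5 control libraries, so their values are given side by side. The median log2 fold change of the cytosolic genes was -0.10, -0.06, -0.07 and 0.07 in that order, and that of the mitochondrial genes -0.06, 0.03, -0.13 and -0.02, against -0.00, -0.01, -0.02 and 0.00 over all genes tested. Single libraries moved these medians. Over the fits without 1 library, the cytosolic median ran from -0.10 to -0.03, -0.15 to -0.04, -0.15 to 0.04 and -0.05 to 0.12. The mitochondrial median ran from -0.11 to 0.00, -0.03 to 0.13, -0.36 to -0.06 and -0.12 to 0.04. The cytosolic median of the LSD1 knockdown turned positive without its replicate 1, and that of the HDAC3 knockdown turned negative without its replicate 3. The mitochondrial median changed sign for STAT5A without no-target replicate 1, for STAT5B without its replicate 2 or 3 or no-target replicate 3 or 4, and for HDAC3 without its replicate 2 or no-target replicate 1. The lowest mitochondrial value, -0.36, was that of the LSD1 knockdown without its replicate 3. The 95% interval lay within a log2 fold change of 1 in either direction for 34 genes in the STAT5A, 34 in the STAT5B, 33 in the LSD1 and 35 in the HDAC3 knockdown. The exceptions were Lars2 in each, Ears2 in the STAT5A and LSD1, Vars in the STAT5B and Mars2 in the LSD1 knockdown. The median half-width of the interval was 0.34 to 0.35 over the 36 genes.

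**Figure D5:**
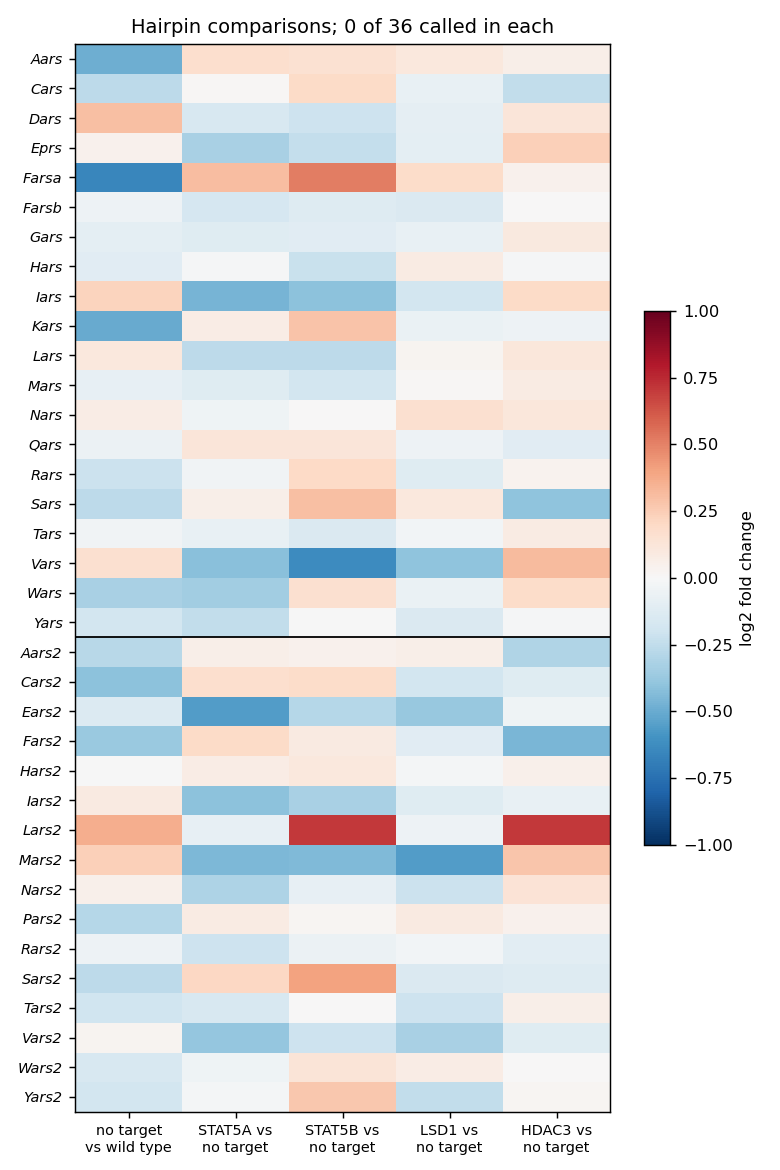
Log2 fold change (colour) of the 36 genes, cytosolic above the line and mitochondrial below it, for the no-target hairpin over stimulated wild type and for each knockdown over the no-target hairpin. The no-target libraries enter all 5 columns; no gene was called in any column, and the strongest red cells are Lars2 in the STAT5B and HDAC3 columns (0.71 and 0.71).

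In the STAT5A knockdown, the genes with an unadjusted p under 0.05 were Iars, for isoleucine, and Nars2, and these were also the 2 of 36 whose groups did not overlap, against 4.8% of all genes. Iars held 59.1, 54.9 and 52.7 CPM in the knockdown and 102, 66.3, 88.5, 59.4 and 68.02 in the no-target libraries (log2 fold change -0.47, SE 0.19, adjusted p = 0.566 by edgeR). The 2 highest controls were no-target replicates 1 and 3, which had many reads outside genes. Without the 5 libraries of that kind the log2 fold change of Iars was -0.21, and -0.16 in the STAT5B knockdown. The level of Iars was not tested against that library property itself. Nars2 held 10.8, 9.72 and 11.99 and 14.05, 12.6, 13.7, 12.8 and 14.2 CPM (log2 fold change -0.31, SE 0.15, adjusted p = 0.566 by edgeR). In both genes each knockdown library lay below each control by a small margin.

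In the STAT5B knockdown, Vars lay lowest. Its 3 libraries held 253, 267 and 258 CPM and the no-target libraries 508, 517, 284, 284 and 415 (log2 fold change -0.63, SE 0.22, adjusted p = 0.222 by edgeR). The groups did not overlap, but the controls themselves fell into 2 near 284 CPM and 3 at 415 CPM or more. Vars was the only synthetase gene without overlap, against 5.72% of all genes. Farsa was at 166, 254 and 316 CPM, with replicate 1 inside and the others above the no-target range (log2 fold change 0.51, SE 0.21, adjusted p = 0.272 by edgeR), and Iars was at 59.6, 62.8 and 50.9 CPM (log2 fold change -0.41, SE 0.19, adjusted p = 0.309 by edgeR). Lars2 held 446, 548 and 490.2 CPM against 622, 133, 378, 189.5 and 193 in the controls, whose range enclosed all 3 (log2 fold change 0.71, SE 0.54, adjusted p = 0.491 by edgeR).

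Set directly against each other, the STAT5A and STAT5B knockdowns gave no call among the synthetase genes, where 0.0248% of all genes were called. Wars, for tryptophan, had the smallest p, at 59.8, 67.7 and 43.3 CPM in the STAT5A and 56.3, 76.4 and 111 in the STAT5B knockdown, with overlap (log2 fold change -0.51, SE 0.19, adjusted p = 1.00 by edgeR). Hars and Vars were higher and Ears2, Lars2, Nars2 and Wars2 lower in the STAT5A knockdown without overlap, which is 6 of 36 genes against 7.07% of all genes; none was called. The 95% interval of the difference lay within a log2 fold change of 1 for all genes but Ears2 and Lars2.

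In the LSD1 knockdown, Mars2 was the only synthetase gene with an unadjusted p under 0.05, at 19.7, 17.7 and 11.6 CPM against 37.01, 24.3, 21.3, 25.2 and 12.2 in the no-target libraries (log2 fold change -0.56, SE 0.26, adjusted p = 0.725 by edgeR). The control range enclosed 2 of the 3 knockdown libraries, and the third, at 11.6 CPM, lay just under no-target replicate 5 at 12.2. In the HDAC3 knockdown Mars2 held 34.7, 26.6 and 25.6 CPM, all above the no-target mean of 24.0, with the controls overlapping (log2 fold change 0.28, SE 0.26, adjusted p = 0.873 by edgeR). Nars, for asparagine, was the only gene whose groups did not overlap in either knockdown, against 2.81% of all genes for LSD1 and 2.44% for HDAC3. It held 180.2, 205 and 171 CPM with the LSD1 and 183, 180.0 and 173 with the HDAC3 hairpin, above 162, 169.6, 169, 166 and 161 in the controls (log2 fold change 0.16, SE 0.09, adjusted p = 0.828 by edgeR for LSD1 and log2 fold change 0.11, SE 0.09, adjusted p = 0.872 by edgeR for HDAC3).

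Fars2, for phenylalanine in mitochondria, was at 21.8, 20.2 and 28.5 CPM in the HDAC3 knockdown and 30.8, 39.9, 22.8, 33.5 and 34.7 in the controls (log2 fold change -0.46, SE 0.19, adjusted p = 0.837 by edgeR). Its low control, no-target replicate 3, and the 2 lowest knockdown libraries had many reads outside genes. Sars was at 129.8, 137 and 209 CPM in the HDAC3 knockdown (log2 fold change -0.40, SE 0.20, adjusted p = 0.861 by edgeR) and 172, 240.1, 173, 215 and 251 in the controls, where replicates 1 and 3 were again the lowest. In the HDAC3 knockdown, no synthetase gene was called without the 5 libraries of that kind, where 8 of 12224 genes were called. None was called with a term for them, where 3 of 12073 genes were. The level of either gene was not tested against that library property itself.

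The LSD1 and HDAC3 knockdowns, set against each other, also gave no call among the synthetase genes, where 0.82% of all genes were called. Mars2 (log2 fold change -0.84, SE 0.29, adjusted p = 0.177 by edgeR) and Vars (log2 fold change -0.72, SE 0.24, adjusted p = 0.159 by edgeR) were lower in each LSD1 library than in each HDAC3 library, which is 2 of 36 genes against 10.5% of all genes without overlap. Vars held 269.6, 261 and 381 CPM in the LSD1 and 449, 456 and 598 CPM in the HDAC3 knockdown. The 95% interval was -1.44 to -0.23 for Mars2 and -1.22 to -0.22 for Vars, so differences over 2-fold lie inside both.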

How the data were processed

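PolyA RNA was sequenced from TruSeq RNA v2 libraries, per the labels' protocols. The deposited values are counts, whole numbers of reads for each gene symbol, which the authors did not normalise, as the values show. Per the submitters' processing notes, the tools named were Trimmomatic 0.30, TopHat2 2.0.10, HTSeq 0.5.4p5 and DESeq2 1.2, with the mm10 build (not given in the sources used here: the counting mode and the annotation). The 5 summary lines of each file were left out of library sizes. The 27 libraries were grouped by their labels. Levels are CPM on library sizes adjusted by edgeR's TMM method. All libraries entered a single edgeR quasi-likelihood fit (edgeR 4.0.16, limma 3.58.1, R 4.3.3; robust, filterByExpr, a mean per group), and genes were called at a Benjamini-Hochberg adjusted p under 0.05 over 12073 genes. SE is the absolute log2 fold change divided by the square root of F. The fit was tested on simulated data. Depth of 5.48 to 33.8 M reads limits low genes most; Ears2 had the fewest reads. No 2 replicates were copies (chi-square per degree of freedom 9.90 to 155 over 42 pairs). Equal replicate numbers paired wild type only (5 of 5 correlations over 0.1, against at most 2 of 3 in the knockdowns and 0 of 5 for no-target against wild type). Exon lengths and positions came from GENCODE vM21 (GRCm38/mm10), matched by symbol, and promoters from RefSeq. The genes and lists were chosen with earlier results of these data known. Named genes are all 36 members, the 4 targets, called members of each list, Atf4 and Myc; Aimp1, Aimp2, Asns and Ddit3 were named after their values were seen. The alternatives tried were DESeq2 1.42.0, RLE in place of TMM, 20571 genes without the filter, a threshold of 0.01, a fit of the compared groups alone, the same with a block for replicate number, leaving out or adding a term for the 5 libraries with over 13% of reads outside genes, and leaving out each library; blocked fits without 1 pair were added after seeing the data. Some further items of the lists and windows are not reported here.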

Additional observations from a re-analysis of the deposited data

Results flagged for a closer look

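Of 108 sets tested (36 genes in the 3 groups of 5 libraries), 7 held a library far from the others. In these 7, the gap to the nearest library was 0.726 to 0.96 of the range of the 5 libraries. Chance alone gives about 1 set in 20, and 7 of 108 is near that rate. The sets share libraries, so they are not independent. Deprived wild-type replicate 3 accounts for 5 of the 7. It read 154 CPM for Lars (97.3 to 103 in the other 4), 128 for Mars (87.3 to 91.9), 387 for Sars (271 to 293), 142 for Yars (86.4 to 97.0) and 1450 for Lars2 (175 to 523). Aars read 205 CPM in stimulated wild-type replicate 3 against 233 to 234 in the other 4, and 185 in no-target replicate 1 against 154 to 160.5. The causes were not tested.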

How the results depend on the processing

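With IL3 in wild type, the count of synthetase genes called was 2 in the fit reported, 4 with only the 2 groups fitted and 8 with the replicate block. Without a pair, the blocked count ran from 2 to 12. It stayed at 2 in all 10 fits without a wild-type library. Mars2 kept its call in all 22 alternatives (log2 fold change 1.14 to 1.40, adjusted p up to 0.0159), as did Pars2 (-0.90 to -0.73, adjusted p up to 0.0237). Of no-target against wild type, DESeq2 called 1 gene (Aars); all other counts in the hairpin comparisons were 0, also without each library (0 to 0) and with the block. Replicate numbers pair only wild type, so the block in other comparisons matches numbers alone. No direction of a called gene reversed. Over all genes, IL3 calls were 461 in the fit reported, 2504 with the block, 1170 with only 2 groups, 939 with a term for the 5 libraries, 876 without them and 252 at a threshold of 0.01. Depth and 3 libraries per knockdown limit which changes can be called, and that holds for changes over 1.5-fold too. Vars in the STAT5B knockdown was not called at a log2 fold change of -0.63. Confidence intervals lay within 1.5-fold in either direction for 23 of 36 genes in the STAT5A and 23 in the STAT5B knockdown. They did so for 28 in the LSD1 and 26 in the HDAC3 knockdown. For the remaining genes, a change of 1.5-fold is not excluded.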
